A study of Mus musculus with 4 samples.

Results

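The nuclear genes of the respiratory chain were taken as the genes whose symbols begin with Nduf, Sdha to Sdhd, Uqcr, Cox4 to Cox8, or Atp5, leaving out symbols that hold "-ps", with at least 100 UMIs over the cells of all 4 libraries. A UMI is a molecular barcode that marks 1 captured transcript. Of 98 symbols that matched, 93 passed, among 32285 genes in the files. They comprised 44 genes of complex I, 8 of complex II, 8 of complex III, 16 of complex IV, and 17 of complex V. Those just inside the minimum were Cox7a1 with 225 UMIs and Cox6a2 with 392, and the gene nearest to it from outside was Ndufa4l2 with 21.

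The libraries came from C57BL/6J mice of 8 to 16 weeks of age. CBM and CS were bone marrow and spleen of control mice, and TBM and TS were bone marrow and spleen of mice bearing tumors, which the study grew from injected PyMT-B6 mammary tumor cells. All 4 were depleted of cells with lineage markers, sorted into hematopoietic stem and progenitor (HSPC) and niche gates, and recombined, so the share of a cell type in a library was set in part by the sort. Each group was 1 library, so a difference between 2 libraries had no replicate check, and no test was made between them. In such comparisons the 95% intervals are exact (Poisson for a level, conditional binomial for a ratio) and cover counting error only.

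The respiratory chain sits in the inner mitochondrial membrane. Complexes I and II take electrons from NADH and succinate, complex III passes them to cytochrome c, complex IV reduces oxygen, and complex V is the ATP synthase that the resulting proton gradient drives. Apart from complex II, each complex also holds subunits encoded in the mitochondrial genome, so nuclear and mitochondrial transcripts must both be made. Long-term hematopoietic stem cells are known for low use of oxidative phosphorylation, while maturing erythroid and myeloid cells rely on it more, and nuclear respiratory factor 1 (NRF1), ETS proteins such as GABP, and YY1 are known regulators of these genes.

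The promoters were searched for the letters of these 3 factors because the 93 genes are known for shared regulation. RefSeq windows (GRCm38.p6, 250 bases before and 50 after the start) were found for 77 of the 93 genes. On either strand, the NRF1 letters (GCGCA, any base, then GCGC) were found in 20 of the 77 windows, or 26.0%, against 4.78% of 27025 gene windows in all. CCGGAAG (ETS) was found in 21, or 27.3%, against 9.12%, and AAGATGGCG (YY1) in 7, or 9.09%, against 1.49%. At least 1 of the 3 was found in 41, or 53.2%, against 14.0%. The following stretches, trimmed to bases that lie in no annotated exon, are those of 2 genes with NRF1 letters, 1 with ETS letters, and 1 with none of the 3, with the matches in capitals. Cox6a1 also has ETS letters, 16 to 10 bases before its start, outside the stretch shown. Cox6a1 encodes a complex IV subunit and is shown at chr5:115348982-115349129, Ndufaf4 and Ndufaf1 encode complex I assembly factors at chr4:24897833-24898082 and chr2:119662835-119663084, and Cox6b2 encodes the second form of a complex IV subunit at chr7:4753095-4753225. All but Ndufaf4 are on the minus strand, and each is written 5′ to 3′ toward its gene.
Cox6a1: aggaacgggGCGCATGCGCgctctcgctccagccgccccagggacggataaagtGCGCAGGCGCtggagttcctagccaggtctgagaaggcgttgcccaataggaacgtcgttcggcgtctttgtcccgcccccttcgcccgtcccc
Ndufaf4: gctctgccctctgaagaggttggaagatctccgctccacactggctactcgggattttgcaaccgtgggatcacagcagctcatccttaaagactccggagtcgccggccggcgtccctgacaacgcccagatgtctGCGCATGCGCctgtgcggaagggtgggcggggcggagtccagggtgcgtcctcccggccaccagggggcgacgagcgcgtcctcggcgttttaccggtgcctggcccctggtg
Ndufaf1: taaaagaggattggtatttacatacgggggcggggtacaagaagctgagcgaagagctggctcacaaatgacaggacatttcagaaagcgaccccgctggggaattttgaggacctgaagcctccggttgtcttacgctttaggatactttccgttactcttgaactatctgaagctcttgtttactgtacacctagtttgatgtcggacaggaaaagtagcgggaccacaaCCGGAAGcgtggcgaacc
Cox6b2: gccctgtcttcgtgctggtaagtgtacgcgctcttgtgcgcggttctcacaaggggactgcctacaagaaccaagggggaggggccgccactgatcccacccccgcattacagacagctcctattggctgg

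After filtering, the CBM, TBM, CS, and TS libraries held 3497, 4340, 3236, and 5188 cells. The medians were 13738, 14386, 26322.5, and 26808 UMIs per cell, higher in the spleen libraries over all their cells. Between 2 and 9 cell barcodes were shared by any 2 libraries, against 1.67 to 3.31 expected from the size of the barcode list. Cells were clustered without the 93 genes, mitochondrial genes, ribosomal protein genes, and the genes of the other lists described below. Those lists include cell division genes and genes of dissociation and immediate early response. Clusters were called "-like" from marker genes. The 4 HSPC-like clusters each had 5 to 9 HSPC markers among their 100 leading genes. They were led by Hlf and Mecom (cluster 0), Dntt and Flt3 (cluster 1), Cxcl2, Socs3, and Egr1 (cluster 3), and Cd34, Hlf, and the mitotic gene Nusap1 (cluster 20). HSPC-like cells numbered 870, 993, 164, and 714 in CBM, TBM, CS, and TS. Their medians were 14338, 14041, 20234, and 13972 UMIs per cell, so in this class TS was not deeper than marrow.

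The 93 genes together were lower in HSPC-like cells than in monocyte-like and erythroid-like cells in every library, and of the 6 classes described here they were lowest in mast or basophil-like cells. In HSPC-like cells their summed level was 19177, 20094, 19397, and 21460 counts per 1000000 UMIs of the class in that library (CPM) in CBM, TBM, CS, and TS. In monocyte-like cells it was 26464, 29262, 24935, and 28919. In mast or basophil-like cells it was 15759, 17462, 15145, and 19604. Megakaryocyte-like cells held 22111, 21419, 21002, and 20704, above HSPC-like cells in CBM, TBM, and CS and below them in TS. Erythroid-like cells held 23720 and 23175 in CBM and TBM but 28836 and 29036 in CS and TS. The profile of barcodes with at most 100 UMIs, which stands for RNA outside cells, held 27330, 28824, 32077, and 29656, above HSPC-like cells in every library. Its part in the class levels was not tested beyond an alternative with it subtracted.

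**Figure D1:**
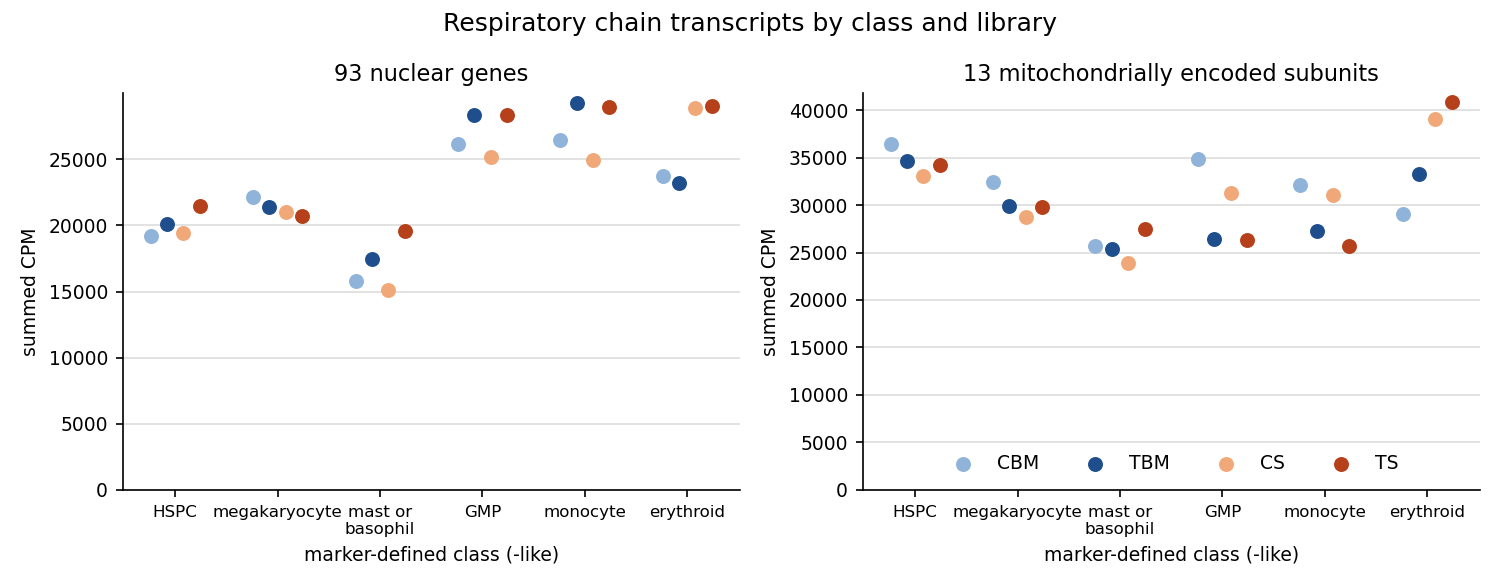
The summed CPM (linear axis) of the 93 nuclear genes and of the 13 mitochondrially encoded subunits in 6 classes, with 1 point per library and no replicates. On the left, HSPC-like and mast or basophil-like points lie below the monocyte-like ones, and on the right the order of the classes differs.

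The 13 mitochondrially encoded subunits differed from the nuclear genes in some classes. In HSPC-like cells they held 36399, 34589, 33103, and 34198 CPM in CBM, TBM, CS, and TS, so they were above the monocyte-like levels of 32132, 27253, 31086, and 25726 in every library. Granulocyte-monocyte progenitor (GMP)-like cells, with 206, 816, 48, and 357 cells, also differed between the nuclear and the mitochondrial genes. Their nuclear genes held 26128 in CBM and 28336 in TBM, while their mitochondrially encoded subunits held 34898 and 26376. In the fit described next, 9 of the 13 mitochondrially encoded subunits were higher in erythroid-like cells and 0 lower, against 31.8% and 37.0% of all genes. In monocyte-like cells 2 were higher and 2 lower, against 24.4% and 26.3%, so both shares were below those of all genes. In mast or basophil-like cells 10 were lower and 0 higher, against 27.4% and 21.7%. In megakaryocyte-like cells 4 were lower and 0 higher, against 14.8% and 10.2%. Their summed level in megakaryocyte-like cells was 32389, 29928, 28696, and 29840 CPM, below that of HSPC-like cells in every library.

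To ask which of the 93 genes set the classes apart, UMIs were summed per library and class and each class was tested against HSPC-like cells over the 4 libraries with edgeR's quasi-likelihood test, the library as a block, and Benjamini-Hochberg adjustment over 11961 genes at a threshold of 0.05. The 4 libraries differ in tissue and tumor, so the spread between them includes those differences. Of the 93 genes 92 were tested, Cox7a1 being too low. Erythroid-like and monocyte-like cells were higher across all 5 complexes. Megakaryocyte-like cells had few genes called, and mast or basophil-like cells had more genes lower than higher, though without cluster 4 of that class the share of lower genes was below that of all genes. All fold changes from this fit are on the log2 scale.

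**Figure D2:**
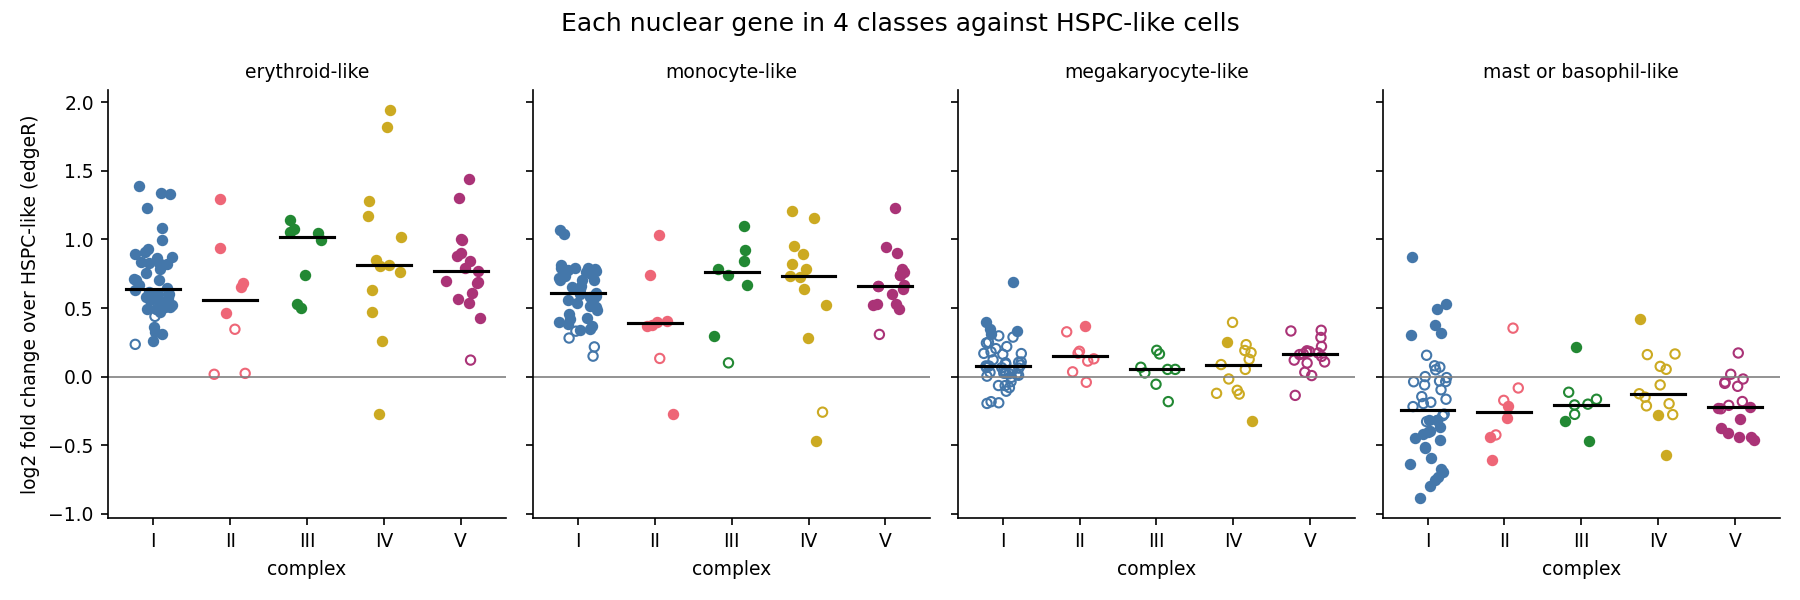
The log2 fold change over HSPC-like cells from edgeR for each gene, by complex (I to V) and class, filled where the adjusted p was under 0.05, with a bar at the median of each complex. Cox4i2 and Cox6a2, whose values run below the axis in some panels, are left out, and the points of the erythroid-like and monocyte-like panels lie mostly above 0.

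In erythroid-like cells 83 of the 92 genes were higher and 3 lower, where 31.8% and 37.0% of all genes tested were called higher and lower. The median over the 92 genes was 0.70, against −0.07 over all genes. Called higher were 42 of 44 genes of complex I, 5 of 8 of complex II, 8 of 8 of complex III, 12 of 15 of complex IV, and 16 of 17 of complex V. Complex III had the highest median of the 5, at 1.02, and complex II the lowest, at 0.56. The 3 lower genes were Cox4i2 and Cox6a2, which had few UMIs, and Cox7a2l, a factor of supercomplex assembly, with −0.27 (SE 0.11, adjusted p = 0.037 in edgeR). Cox7a2l was at 200, 217, 274, and 318 CPM against 389, 403, 381, and 394 in HSPC-like cells. The 6 genes that did not pass included the complex II assembly factors Sdhaf1 (0.02), Sdhaf3 (0.35), and Sdhaf4 (0.02) and the complex I assembly factors Ndufaf5 (0.44) and Ndufaf8 (0.24).

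The genes with the largest erythroid-like fold changes were 2 subunits of complex IV. Cox6b2, the form of subunit 6b known for its expression in testis, was at 164, 188, 167, and 143 CPM in erythroid-like cells of CBM, TBM, CS, and TS and at 55.5, 60.5, 58.3, and 50.4 in HSPC-like cells. The groups did not overlap, and the log2 fold change was 1.95 (SE 0.15). Cox6a1, whose promoter with 2 NRF1 matches is shown above, was at 417, 354, 409, and 356 against 116, 130, 162, and 166, a log2 fold change of 1.82 (SE 0.15). Atp5o of the ATP synthase stalk followed at 1.44 (SE 0.14), and the complex I subunits Ndufb10 and Ndufb9 at 1.39 (SE 0.10) and 1.34 (SE 0.12).

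Among the core and F1 subunits, the fold changes were uneven. Ndufv1, which binds the NADH of complex I, was at 110, 129, 132, and 142 CPM against 61.7, 78.1, 62.0, and 83.7 in HSPC-like cells, a log2 fold change of 1.23 (SE 0.10). Of the 3 core subunits of complex III, Uqcrc1 had 1.08, the iron-sulfur protein Uqcrfs1 1.05, and Uqcrc2 0.74. In complex II, Sdha, the flavoprotein, had 0.46 and Sdhb, the iron-sulfur subunit, 0.69. In complex V, the F1 subunits Atp5b and Atp5a1 had 0.90 and 0.69.

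Hemoglobin took up a part of the erythroid-like UMIs that differed between tissues. It made up 168972 and 151606 CPM in the CBM and TBM cells, which lay mostly in clusters 19 and 21, and 14164 and 1760 in the CS and TS cells, which lay mostly in clusters 24, 28, and 30. The edgeR fit scales libraries by their bulk of genes, whereas CPM do not. Of the 83 genes called higher, 56 were also above HSPC-like cells in CPM in all 4 libraries. The same count was not made over all genes called higher, so this share has no background. Ndufa4, a complex IV subunit once assigned to complex I, had a fitted log2 fold change of 0.26 but fewer CPM than in HSPC-like cells in all 4 libraries. Ndufaf4 was split by tissue, at 43.3 and 44.6 CPM in CBM and TBM against 52.2 and 56.3 in HSPC-like cells, and at 94.6 and 92.4 in CS and TS against 57.0 and 55.5. The part of the scaling in these genes was not tested. Without clusters 19 and 21, a choice made after seeing the data, 87 genes were higher and 2 lower, against 34.4% and 37.0% of all genes. That choice left 15, 30, 326, and 1894 cells in CBM, TBM, CS, and TS, so both marrow libraries were under the minimum of 50 cells.

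Cluster 19, in which hemoglobin was 39.3% of UMIs, had the summed level of 15434 CPM, against 29029 in cluster 24 and 30384 in cluster 28. With hemoglobin, mitochondrial, and ribosomal protein genes out of the denominator, the level was 33300 in cluster 19 against 45724 and 47005. Complex II differed more than the whole list, with 227 CPM in cluster 19 against 757 and 773. Within clusters 19 and 21 alone, Atp5g2 was lower than in HSPC-like cells, with a log2 fold change of −0.69 in edgeR (adjusted p = 8.67e-07), and in clusters 19 and 21 alone 76 genes were higher and 9 lower, against 31.0% and 41.5% of all genes.

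In the erythroid-like class, 21 of 90 genes were at least 1.5-fold higher in CS than in CBM and 0 lower, where 35.6% of all genes were past that fold upward and 13.1% downward. In TS over TBM 25 of 90 were higher and 0 lower, against 36.6% and 15.1%. These shares were below the background upward, and the medians of 0.32 and 0.38 were near the all-gene medians of 0.35 and 0.35. In cluster 24, where CS and TS had 246 and 1150 cells, TS over CS was 0.01 [0.006 to 0.015] on the log2 scale.

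In monocyte-like cells 80 genes were higher and 2 lower, against 24.4% and 26.3% of all genes, with a median of 0.64. Complex III had the highest median, 0.76, and complex II the lowest, 0.39. Atp5o led here with a log2 fold change of 1.23 (SE 0.14), followed by Cox7b of complex IV with 1.21 (SE 0.12), Cox6a1 with 1.16 (SE 0.15), Uqcrq of complex III with 1.10 (SE 0.14), and Ndufb10 with 1.07 (SE 0.10). Cox7b was at 454, 452, 439, and 445 CPM in monocyte-like cells of CBM, TBM, CS, and TS against 184, 215, 264, and 233 in HSPC-like cells. All 4 monocyte-like values lay above all 4 HSPC-like ones.

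The 2 genes that fell were Cox6b2, with a log2 fold change of −0.47 (SE 0.15, adjusted p = 0.0154 in edgeR), and Sdhaf4, an assembly factor of complex II, with −0.27 (SE 0.10, adjusted p = 0.0273). Cox6b2 therefore lay on opposite sides of HSPC-like cells in the erythroid-like and monocyte-like classes. GMP-like cells, which had 48 cells in CS and so were added only as an alternative, had 83 genes higher and 2 lower, against 25.1% and 30.1% of all genes, with Atp5g1 (1.22), Cox7b (1.22), and Uqcrq (1.19) at the top.

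In mast or basophil-like cells 8 genes were higher and 37 lower, where 21.7% and 27.4% of all genes were called, with a median of −0.21. Of complex I 19 genes were lower and 6 higher, of complex II 4 and 0, of complex III 2 and 1, of complex IV 4 and 1, and of complex V 8 and 0. The complex I subunit Ndufa12 was at 90.7, 105, 87.9, and 145 CPM against 164, 195, 176, and 228 in HSPC-like cells, a log2 fold change of −0.76 (SE 0.11). Ndufaf4, whose promoter is shown above, fell by 0.89 (SE 0.19), and the methyltransferase Ndufaf7, another complex I assembly factor, was higher at 0.87 (SE 0.16). Atp5b fell by 0.44 (SE 0.10). The result turned in part on cluster 4, which had a median of 4383 UMIs per cell and was led by the chemokines Ccl6, Ccl3, and Ccl4. Without it, a choice made after seeing the data, 10 genes were lower and 5 higher, or 10.9% and 5.43%, against 13.4% and 12.9% of all genes, so the share of lower genes was then no greater than among genes at large. Leaving out 1 library also moved the count of lower genes, to 18 without CBM, 22 without TBM, and 22 without CS, or 19.6%, 23.9%, and 23.9% against 18.8%, 17.2%, and 19.9% of all genes, so the share without CBM was near that of all genes. It moved that of higher genes to 4 without CBM, 4 without TBM, and 5 without CS. These were 4.35%, 4.35%, and 5.43%, against 16.91%, 19.75%, and 17.03% of all genes.

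In megakaryocyte-like cells 7 genes were higher and 3 lower, against 10.2% and 14.8% of all genes, with a median of 0.10. The 7 were the complex I genes Ndufaf5 (0.69), Ndufv3 (0.40), Ndufb9 (0.35), Ndufs4 (0.34), and Ndufb10 (0.31), the complex II assembly factor Sdhaf1 (0.37), and Cox8a of complex IV (0.25). The 3 lower genes were Cox6a2, with 0 UMIs in this class, Cox4i2, and Ndufa4. Ndufa4 fell by 0.32 (SE 0.11), with 559, 547, 564, and 550 CPM against 715, 656, 721, and 699. The number of genes called higher ranged from 0 to 10 when 1 library was left out, with 0 without CBM, 0 without CS, 1 without TBM, and 10 without TS, against 6.22%, 6.33%, 6.27%, and 9.31% of all genes.

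Other lists of mitochondrial genes, chosen with the 93, were tested in the same fit. There 31.8% of all genes were called higher and 37.0% lower in erythroid-like cells, and 24.4% and 26.3% in monocyte-like cells. The shares were 21.7% and 27.4% in mast or basophil-like cells and 10.2% and 14.8% in megakaryocyte-like cells. Of 78 mitochondrial ribosomal protein genes, 63 were higher and 1 lower in erythroid-like cells, 63 and 1 in monocyte-like cells, 1 and 40 in mast or basophil-like cells, and 4 and 2 in megakaryocyte-like cells. Of 17 genes of the tricarboxylic acid cycle, 13 were higher and 1 lower in erythroid-like cells, 13 and 0 in monocyte-like cells, 1 and 9 in mast or basophil-like cells, and 0 and 1 in megakaryocyte-like cells. Of 12 regulators of mitochondrial biogenesis, such as Nrf1, Gabpa, and Tfam, 5 were higher and 2 lower in erythroid-like cells, 1 and 2 in monocyte-like cells, 2 and 6 in mast or basophil-like cells, and 0 and 0 in megakaryocyte-like cells. Lists of other processes also moved with the classes. Of 14 cell division genes, 14 were higher in erythroid-like cells, 8 in monocyte-like cells, and 0 in mast or basophil-like cells, where 5 were lower. Of 14 genes of dissociation and immediate early response, 11 were lower in erythroid-like cells, 11 in monocyte-like cells, and 1 in mast or basophil-like cells, where 10 were higher. The part of these in the class differences was not tested. Genes with and without a promoter match to the 3 factors had like medians, 0.71 and 0.74 in erythroid-like cells and 0.66 and 0.63 in monocyte-like cells, over 41 and 36 genes.

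Several subunits are encoded by more than 1 gene, and the makeup of these families differed between classes. The c ring of the ATP synthase, which turns with the proton flow, is built from 1 mature protein that Atp5g1, Atp5g2, and Atp5g3 all encode. Atp5g1 made up 29.2%, 31.2%, 29.8%, and 33.6% of the family's UMIs in HSPC-like cells of CBM, TBM, CS, and TS and 43.9%, 43.6%, 45.7%, and 46.3% in erythroid-like cells. The 2 sets did not overlap. Atp5g1 rose in erythroid-like cells by a log2 fold change of 1.30 (SE 0.14), whereas Atp5g2 had 0.12 (SE 0.13, adjusted p = 0.422 in edgeR). In mast or basophil-like cells the 3 genes were all lower, with −0.46, −0.44, and −0.37.

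Of the 2 forms of subunit 6b, Cox6b2 made up 13.6%, 13.7%, 13.3%, and 11.0% of UMIs in HSPC-like cells and 26.1%, 29.0%, 22.1%, and 19.1% in erythroid-like cells. It made up 7.05%, 5.37%, 7.31%, and 4.72% in monocyte-like cells. Cox6b1 itself was higher in both classes, with log2 fold changes of 0.85 and 0.72. In RNA outside cells Cox6b2 was at 53.7, 58.2, 163, and 116 CPM, so the CS and TS values lay above those of HSPC-like cells.

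**Figure D3:**
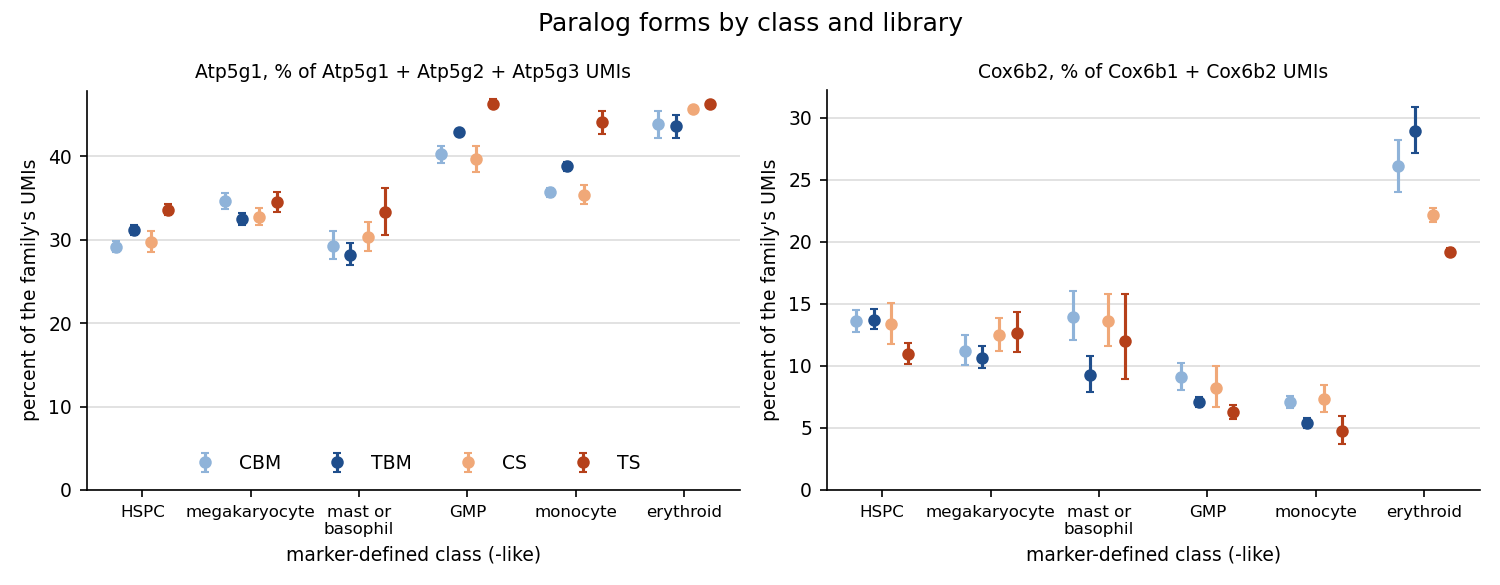
The percentage of its family's UMIs (linear axis) held by Atp5g1 and by Cox6b2 in 6 classes, with 1 point per library and exact binomial 95% intervals that cover counting error. Both shares are higher in erythroid-like than in HSPC-like cells in every library, and Cox6b2 is lowest in monocyte-like and GMP-like cells.

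Cox6a2, the form of subunit 6a known from heart and skeletal muscle, was low in HSPC-like cells. It was at 5.54, 3.07, 2.14, and 2.85 CPM in CBM, TBM, CS, and TS, with 81, 51, 8, and 32 UMIs. RNA outside cells held 2.58, 1.65, 0.790, and 0.832 CPM of it on 3 to 6 UMIs, and monocyte-like cells 2.14, 1.40, 2.71, and 2.19 CPM. In cluster 1, led by Dntt and Flt3, it was at 10.5 with 60 UMIs in CBM and 6.64 with 45 UMIs in TBM. In cluster 0, led by Hlf, 0 UMIs were found in all 4 libraries, which allows up to 0.497, 0.563, 3.35, and 7.76 CPM in CBM, TBM, CS, and TS (3 UMIs, counting error only). In the T, NK, or innate lymphoid-like cluster 34 it was at 22.7 in CS and 9.95 in TS. Cox6a2 is encoded at chromosome 7, 128205435 to 128206387 (GRCm38).

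The comparisons of tumor-bearing with control mice within HSPC-like cells asked whether the respiratory chain differed with the tumor, and the summed differences were small. The log2 ratio of the summed level was 0.15 [0.13 to 0.16] in TS over CS and 0.07 [0.06 to 0.07] in TBM over CBM. Between tissues it was 0.02 [0.00 to 0.03] in CS over CBM and 0.09 [0.09 to 0.10] in TS over TBM. The sizes depended on the setting. TBM over CBM was 0.0369 with hemoglobin, mitochondrial, and ribosomal protein genes out of the denominator, 0.0290 as a mean over cells, 0.00977 in cluster 20 only, and 0.16 in cells of any class with UMIs of Kit, Ly6a, Cd34, and Ptprc. With the changed denominator CS over CBM and TS over TBM became −0.0427 and 0.0400, and with RNA outside cells subtracted CS over CBM became −0.0229. Without cluster 3 the summed level was 20045 CPM in TBM and 22895 in TS, further apart than in the whole class. In cluster 20 only it was 21467 in CBM and 19816 in CS, on 19 CS cells. These cluster choices were made after seeing the data. Single genes past 1.5-fold were few. In TS over CS 1 of 91 genes was higher and 0 lower, against 4.46% and 7.00% of all genes, and in TBM over CBM 1 of 92 was higher and 1 lower, against 3.84% and 4.92%. In CS over CBM 2 of 92 were higher and 1 lower, against 3.68% and 4.61%, and in TS over TBM 1 was higher and 0 lower, against 3.65% and 6.32%. Cox4i2 was the higher gene in all 4, joined in CS over CBM by Ndufaf1, whose promoter is shown above (0.67 [0.29 to 1.03]), and Cox6a2 was the lower one in TBM over CBM and in CS over CBM. The latter rested on 8 UMIs in CS and turned to 1.00 in cells of any class with UMIs of Kit, Ly6a, Cd34, and Ptprc.

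The small differences were shared by many genes. In TS over CS 69 of 91 genes, or 75.8%, had a ratio above 1, against 46.9% of all genes, and in TBM over CBM 63 of 92 did, against 48.6%. The tissue comparison in tumor-bearing mice, TS over TBM, had 69 of 92, against 48%, and CS over CBM 58 of 92 against 53.1%. Within cluster 3, which held 408 of the 714 HSPC-like cells of TS, 34 of 90 genes had a ratio above 1 in TS over TBM. The 4 comparisons share libraries with each other, so they are not independent. The 7 core subunits of complex I had larger ratios in the tumor comparisons than its accessory subunits did. Their summed level was 601, 711, 654, and 799 CPM in CBM, TBM, CS, and TS, with log2 ratios of 0.29 [0.22 to 0.35] in TS over CS and 0.24 [0.20 to 0.28] in TBM over CBM, and each of the 7 was positive in both. The 29 accessory subunits had 0.12 [0.10 to 0.14] and 0.09 [0.07 to 0.10]. Annotated transcripts ran from 983 to 2661 bases for the core subunits and from 419 to 4371 for the accessory ones. Ratios and transcript length were correlated across genes, as given below, and the part of length in this difference was not tested.

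Ndufv1 was at 61.7 and 78.1 CPM in HSPC-like cells of CBM and TBM and at 62.0 and 83.7 in CS and TS. Its log2 ratio was 0.43 [0.22 to 0.64] in TS over CS and 0.34 [0.22 to 0.46] in TBM over CBM. Both tumor-bearing libraries were higher, and CS over CBM was 0.01 [−0.21 to 0.22]. Uqcrfs1, the iron-sulfur protein of complex III, also had both tumor-bearing libraries above both control libraries, with 104 and 131 in CBM and TBM and 93.3 and 134 in CS and TS, and a log2 ratio of 0.53 [0.36 to 0.70] in TS over CS.

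In complex II, the order depended on the subunit. Sdhb was at 92.3, 98.0, 96.5, and 130 CPM in CBM, TBM, CS, and TS, so that TS stood apart from the other 3. Sdhd, a membrane anchor, was at 73.3 in CBM and at 96.5, 90.1, and 99.6 in TBM, CS, and TS, so that CBM stood apart. Sdha, the largest subunit, was at 110 to 124 in the 4 libraries, and the interval of its ratio held 0 both in TS over CS (0.11 [−0.05 to 0.27]) and in TBM over CBM (0.06 [−0.03 to 0.16]). The c ring had 0.29 [0.24 to 0.34] in TS over CS and 0.18 [0.15 to 0.21] in TBM over CBM.

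Some of the smallest subunits went the other way. Ndufa3 of complex I was at 126, 88.6, 111, and 81.3 CPM in CBM, TBM, CS, and TS, with log2 ratios of −0.51 [−0.61 to −0.41] in TBM over CBM and −0.45 [−0.62 to −0.28] in TS over CS. Cox7c of complex IV was at 535, 431, 460, and 397, and Atp5k of complex V at 183, 153, 146, and 127. In these 3 genes each tumor-bearing library was below the control library of its tissue. Across genes, the ratio in HSPC-like cells had a Spearman correlation with transcript length of 0.35 in TS over CS (91 genes) and 0.31 in TBM over CBM (92 genes), and of 0.29 in TS over TBM and 0.19 in CS over CBM, a description of genes measured in the same libraries, with annotated transcripts of 371 to 4715 bases. Length was that of the annotated principal protein-coding transcript, the longest where several ranked alike. It may differ from that of the transcript present in these cells.

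**Figure D4:**
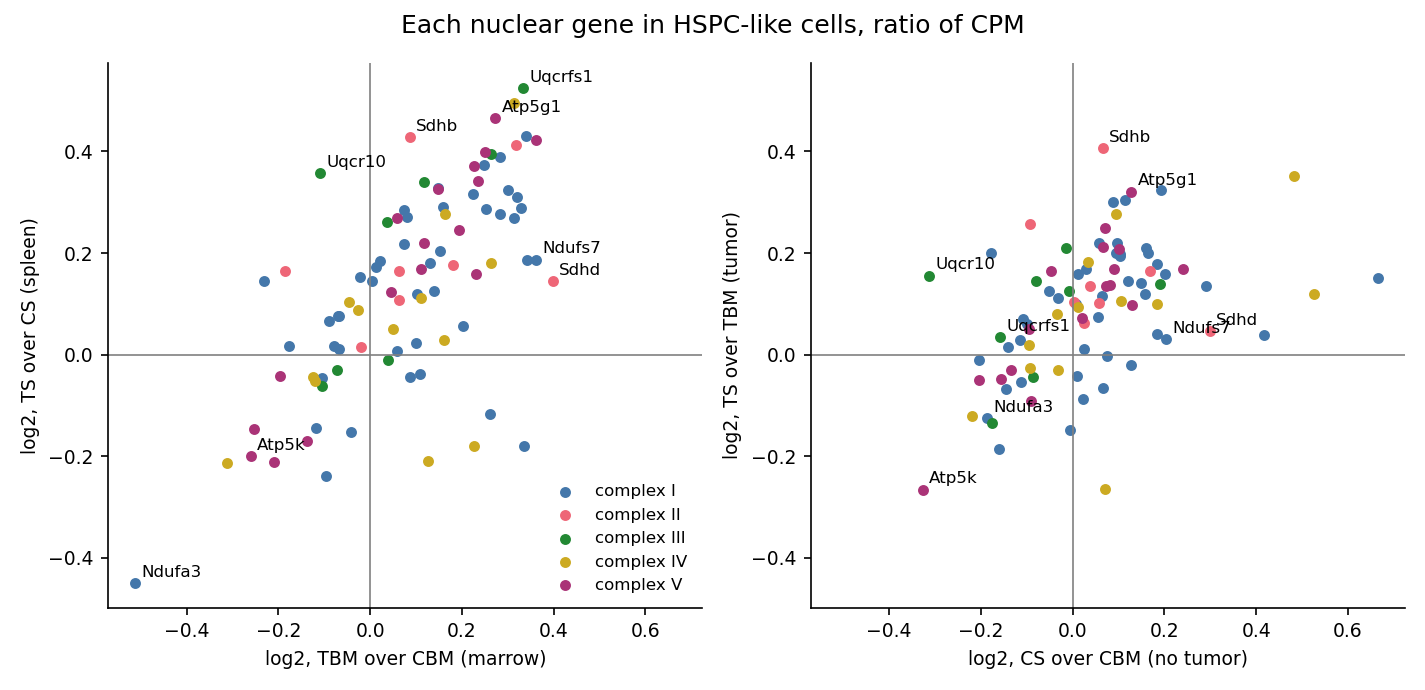
The log2 ratio of CPM in HSPC-like cells for 90 genes, colored by complex, with the tumor comparison in spleen against that in marrow on the left and the spleen over marrow comparison in tumor-bearing against control mice on the right. Most points on the left lie right of and above 0, with Ndufa3, Atp5k, and others in the lower left, and Cox4i2, Cox6a2, and Cox7a1 are left out.

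These differences came with others between the same libraries. Within cluster 0, TBM over CBM was −0.04 [−0.05 to −0.03] and TS over CS 0.01 [−0.03 to 0.05]. Within cluster 1 they were 0.11 [0.10 to 0.12] and 0.16 [0.13 to 0.18]. Within cluster 3 TS over CS was 0.18 [0.15 to 0.20]. TS over TBM was 0.07, 0.14, and 0.10 within clusters 0, 1, and 20, but −0.09 [−0.12 to −0.07] within cluster 3. Cluster 3 held 2, 48, 42, and 408 cells of CBM, TBM, CS, and TS. Cluster 0 held 475 of 870, 471 of 993, 52 of 164, and 46 of 714 HSPC-like cells in the same order. Its summed level over all libraries was the lowest of the 4 HSPC-like clusters. It was 16763 CPM, against 21490, 19641, and 22072 in clusters 1, 3, and 20. The summed level of 14 cell division genes in HSPC-like cells was 1792, 1734, 1893, and 2485 CPM, and that of 14 genes of dissociation and immediate early response was 4007, 4455, 7778, and 7083. The part of these in the ratios was not tested.

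One gene stood apart from the other 92 in HSPC-like cells. Cox4i2 encodes the second form of complex IV subunit 4, which is known for expression in lung and for its induction at low oxygen, and lies at chromosome 2, 152754173 to 152765037 (GRCm38). It was at 2.53 CPM in CBM (37 UMIs), 7.64 in TBM (127 UMIs), 10.97 in CS (41 UMIs), and 27.7 in TS (311 UMIs). Its log2 ratio was 1.59 [1.06 to 2.16] in TBM over CBM, 1.34 [0.87 to 1.85] in TS over CS, 2.12 [1.44 to 2.80] in CS over CBM, and 1.86 [1.56 to 2.17] in TS over TBM. Among the tested genes of the respiratory chain, it was the highest in all 4 comparisons and the one gene past 1.5-fold upward in each. At a fold of 2 it was again the 1 gene of the list called higher in each, or 1.09% to 1.10%. Of all genes, 1.16%, 1.49%, 1.23%, and 1.18% passed in TS over CS, TBM over CBM, CS over CBM, and TS over TBM. The share of the list past that fold was therefore no greater than among genes at large. How many of all genes passed in all 4 was not counted, and the 4 ratios share libraries. The Cox4i2 share of the UMIs of both subunit 4 genes remained low, from 0.375% in CBM to 3.37% in TS. Cox4i1, the common form, was at 673, 754, 657, and 796 CPM.

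The levels were also compared within clusters. In cluster 0 Cox4i2 was at 1.33 [0.57 to 2.61] CPM in CBM, 6.38 [4.42 to 8.92] in TBM, 16.8 [9.39 to 27.7] in CS, and 18.1 [7.28 to 37.3] in TS. In cluster 1 it was at 3.32 [2.00 to 5.19], 8.40 [6.37 to 10.9], 11.9 [6.96 to 19.1], and 26.3 [17.04 to 38.9]. In cluster 20 it was at 3.53 in CBM, 8.34 in TBM, and 31.0 in TS. In these 3 clusters the CBM value was the lowest and the TS value the highest, and the CS and TS intervals of clusters 0 and 1 overlapped. In cluster 20, which had 19 CS cells, CS over CBM was 0.83 on the log2 scale, with a 95% interval that held 0. In cluster 3, CS and TBM rested on 5 UMIs each, at 6.37 and 6.28, against 25.7 in TS.

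**Figure D5:**
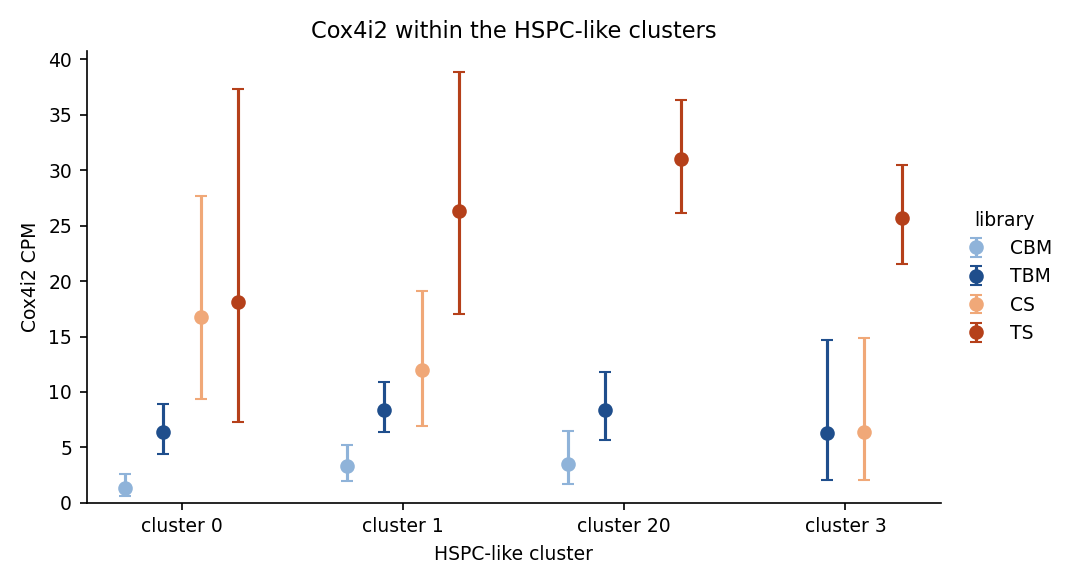
Cox4i2 CPM (linear axis) in the 4 HSPC-like clusters by library, with exact Poisson 95% intervals, for clusters with at least 20 cells of the library. The CBM points are lowest in clusters 0, 1, and 20, and the TS points highest in all 4 clusters.

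Outside HSPC-like cells, Cox4i2 was at 4.08, 6.33, 7.88, and 17.1 CPM in monocyte-like cells of CBM, TBM, CS, and TS, in the same order of libraries. In GMP-like cells it was at 7.79 in TS and between 0.573 and 0.955 in the other 3. It was near 0 in erythroid-like cells, with 0, 1, 0, and 13 UMIs, and in mast or basophil-like cells, with 0, 3, 2, and 1. In megakaryocyte-like cells it was at 0.507, 2.24, 1.29, and 3.70, below HSPC-like cells in every library. RNA outside cells held 0.430, 3.96, 3.55, and 5.27 CPM of it, below the HSPC-like level in every library.

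Among other classes, monocyte-like cells had a higher summed level with the tumor, by 0.21 [0.20 to 0.23] in TS over CS and 0.14 [0.14 to 0.15] in TBM over CBM on the log2 scale. Of 91 genes 8 were at least 1.5-fold higher in TS than in CS and 1 lower, against 9.09% and 13.9% of all genes. Cox4i2 (1.11) and Ndufab1, the mitochondrial acyl carrier protein (0.83), stood highest, and Ndufa1 (−0.72) was the lower gene. In TBM over CBM 2 of 93 were higher and 2 lower, against 5.17% and 7.76%, namely Cox4i2 (0.63) and Atp5g3 (0.59), and Cox7a1 (−0.91) and Cox6a2 (−0.61). The mitochondrially encoded subunits had −0.27 [−0.29 to −0.26] and −0.24 [−0.24 to −0.23] in the same cells, the opposite direction in both tissues. Within cluster 15, which held most monocyte-like cells of the spleen, the nuclear genes had 0.21 [0.20 to 0.23] and 0.14 [0.13 to 0.14]. The mitochondrially encoded subunits had −0.29 and −0.33 there. Within cluster 17, TBM over CBM was 0.14 for the nuclear genes and −0.07 [−0.08 to −0.06] for the mitochondrial ones. Within cluster 10 these were −0.0005 [−0.029 to 0.028] and 0.10 [0.07 to 0.12]. Cluster 10 held 160 of 756 cells in CBM and 46 of 507 in TBM, and the part of this makeup was not tested.

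In mast or basophil-like cells the summed log2 ratio was 0.37 [0.35 to 0.40] in TS over CS, where 22 of 87 genes were at least 1.5-fold higher and 1 lower, against 11.4% and 17.4% of all genes. Uqcrq had 1.06, Atp5o 0.87, and Ndufb8 0.85, and Sdhaf2 was the lower gene at −0.94. In TBM over CBM the summed ratio was 0.15 [0.13 to 0.16], and 2 of 89 genes were at least 1.5-fold higher and 0 lower, against 8.12% and 10.6% of all genes. The spleen cells differed in makeup, since cluster 4 held 297 of 374 cells in CS and 45 of 100 in TS. Within cluster 4 the summed ratio of TS over CS was 0.07 [0.01 to 0.14], and within cluster 12 0.17 [0.13 to 0.21]. The marrow cells differed too, with cluster 4 holding 422 of 555 cells in CBM and 231 of 517 in TBM. Cluster 25 held 43 and 230. Within clusters 4, 12, and 25 TBM over CBM was 0.05 [0.02 to 0.07], 0.06 [0.03 to 0.09], and 0.01 [−0.03 to 0.04]. Megakaryocyte-like cells had −0.02 [−0.03 to −0.01] in TS over CS and −0.05 [−0.06 to −0.04] in TBM over CBM. Within clusters 2, 5, and 14 TS over CS was above 0, at 0.020 [0.001 to 0.039], 0.028 [0.009 to 0.047], and 0.196 [0.096 to 0.295]. These clusters held 103, 80, and 27 cells in CS and 198, 63, and 23 in TS. TBM over CBM was −0.0006 [−0.017 to 0.016] within cluster 2 and −0.067 [−0.079 to −0.054] within cluster 5. The part of the makeup was not tested.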

How the data were processed

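The authors made the UMI counts of 10x Genomics 3' libraries with Cell Ranger 4.0 on mm10 (per the labels), and the deposited matrices hold those UMI counts for all barcodes, without normalization. Cell Ranger counts reads with 1 confident place, so genes with near-identical copies may be undercounted. Barcodes with at least 1000 genes and at most 10% mitochondrial UMIs were kept, without SoupX and with doublets left in (Scrublet called 0.742% to 1.72%). The 93 genes, mitochondrial and ribosomal protein genes, and all the other lists, cell division and immediate early among them, were left out of the clustering. Pearson residuals (theta 100) of 3000 variable genes then gave 50 principal components and, with 20 neighbors, 37 Leiden clusters at resolution 1.2 (Scanpy 1.11.5, leidenalg 0.10.2). Of these, 30 were named from markers and 7, with 3983 cells, were left unnamed. The rule that left clusters of few UMIs and mixed markers unnamed was set after seeing them.

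Levels were ratios of summed UMIs to all UMIs of a class. Libraries, 1 per group, were compared without a test. A gene counted as tested between libraries with at least 50 UMIs over both. Classes with at least 50 cells in every library were compared over library sums with edgeR 4.0.16, and DESeq2 1.42.0 was an alternative. The standard errors were taken from the fold change and its F statistic. The script was tested on simulated data. Named genes were the paralog forms, a fixed set of core subunits (1 of which is not reported here), the 5 highest and 5 lowest genes of each comparison, and others named beside a small count, or to show a pattern, after their values were seen. Positions are from GENCODE vM21. The members and lists were chosen with earlier results of these data known.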

Additional observations from a re-analysis of the deposited data

Results flagged for a closer look

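In 4 cases the tumor comparison went one way in spleen and the other in marrow, with intervals of counting error that held 0 in neither. With 1 library per group, the differences were not tested. The mitochondrially encoded subunits of HSPC-like cells had a log2 ratio of 0.05 in TS over CS and −0.07 in TBM over CBM, a difference of 0.12. Those of megakaryocyte-like cells had 0.06 and −0.11, a difference of 0.17, and those of mast or basophil-like cells 0.20 and −0.02, a difference of 0.21. Cluster 4 held 297 of 374 such cells in CS and 45 of 100 in TS, and within it the values were −0.09 and −0.09, and within cluster 12 −0.00 and −0.02, so the opposite directions were not seen within these clusters. The 93 nuclear genes of erythroid-like cells had 0.01 and −0.03, a difference of 0.04 (0.0435 before rounding). Without clusters 19 and 21 their level went from 29302 CPM in CS to 29092 in TS and from 29922 in CBM to 28470 in TBM, lower with the tumor in both, with 15 and 30 cells in CBM and TBM.

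Ndufb1-ps, left out by its name alone, had 116880 UMIs over the 4 libraries. In HSPC-like cells it was at 288, 244, 248, and 203 CPM in CBM, TBM, CS, and TS, and in erythroid-like cells at 318, 253, 362, and 281.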

How the results depend on the processing

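No paired analysis was possible because, between libraries, each group was 1 library, so that the groups share fewer than 2 replicate numbers, while the class comparisons had the library as a block. Depth limits Cox4i2 and Cox6a2, whose values rest on few UMIs. Of the summed log2 ratios in HSPC-like cells, TBM over CBM turned to −0.0394 in cluster 0 only. CS over CBM turned to −0.0427 with hemoglobin, mitochondrial, and ribosomal protein genes out of the denominator, to −0.0229 with free RNA subtracted, and to −0.12 in cluster 20 only, which has 19 CS cells. The cause was not tested. For TS over CS, TBM over CBM, and TS over TBM the changed denominator gave 0.12, 0.0369, and 0.0400, and the mean over cells 0.12, 0.0290, and 0.10. Cells of any class with UMIs of Kit, Ly6a, Cd34, and Ptprc gave 0.20, 0.16, 0.0526, and 0.0847 for TS over CS, TBM over CBM, CS over CBM, and TS over TBM. Free RNA subtracted gave 0.19 for TS over CS and 0.11 for TS over TBM. Among choices made after seeing the data, leaving out cluster 3 gave 0.20, 0.0547, and 0.19 for TS over CS, CS over CBM, and TS over TBM, cluster 0 only gave 0.0116 and 0.0654 for TS over CS and TS over TBM, and cluster 20 only gave 0.22 and 0.00977 for TS over CS (again with 19 CS cells) and TBM over CBM. With a log2 ratio of 0.32 as the call, 19, 9, 5, and 4 genes were higher in TS over CS, TBM over CBM, CS over CBM, and TS over TBM, and 1, 2, and 2 lower in the first 3, where 13.7%, 11.1%, 12.1%, and 10.5% of all genes were higher, and 19.4%, 13.9%, and 12.6% lower in the first 3. The 19 of 91 genes in TS over CS are 20.9%. At a fold of 2, 0 were lower in TBM over CBM and 1 higher in CS over CBM, against 1.54% and 1.23% of all genes.

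Leaving out 1 library gave 77 to 85 genes higher and 2 to 3 lower in erythroid-like cells, 69 to 77 and 1 in monocyte-like cells, 4 to 6 and 18 to 38 in mast or basophil-like cells, and 0 to 10 and 2 in megakaryocyte-like cells. Of all genes, 27.7% to 31.7% were then higher and 31.6% to 35.8% lower in erythroid-like cells, and 16.7% to 22.1% and 19.7% to 24.3% in monocyte-like cells. In mast or basophil-like cells 18 were lower without CBM, 22 without CS, and 22 without TBM, against 18.8%, 19.9%, and 17.2% of all genes. In the same class 16.91% (without CBM) to 21.03% (without TS) of all genes were higher. Genes called higher in megakaryocyte-like cells numbered 13 with DESeq2, 2 with all genes of at least 1 UMI, and 3 without cluster 3, against 11.9%, 5.40%, and 9.28% of all genes. Genes called higher in mast or basophil-like cells numbered 5 without cluster 3, 5 against cluster 20 only, 5 without cluster 4, and 4 without hemoglobin, mitochondrial, and ribosomal protein genes, against 21.6%, 23.4%, 12.9%, and 20.3% of all genes. In the same class 10 were lower without cluster 4 and 51 of 91 against cluster 20 only, or 56.0% against 24.8% of all genes. In erythroid-like cells 9 were lower in clusters 19 and 21 only and 1 against cluster 20 only, against 41.5% and 31.1% of all genes. In monocyte-like cells 1 was lower with all genes of at least 1 UMI and 1 without hemoglobin, mitochondrial, and ribosomal protein genes, against 17.98% and 24.02% of all genes. Of single genes, Cox6a2 in CS over CBM turned to 1.00 in cells of any class with UMIs of Kit, Ly6a, Cd34, and Ptprc, and in clusters 19 and 21 only Atp5g2 turned to −0.69. The Cox4i2 log2 ratio ranged over 10 settings from 1.24 to 2.27 in TBM over CBM, from 1.51 to 1.93 in TS over TBM, from 0.83 to 3.66 in CS over CBM, and from 0.11 (cluster 0 only) to 2.30 in TS over CS.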
